A study of Mus musculus with 9 samples.

Results

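The genes of the NF-kB transcription factor and of its feedback inhibitors were followed in cultured synovial fibroblasts (SFs) of mice. The genes were chosen by symbol, 10 out of 49548 genes in the deposited tables, and all 10 were found and passed the filter on low values in each comparison. They are the subunit genes *Nfkb1*, *Nfkb2*, *Rela* and *Relb* and the IkB genes *Nfkbia*, *Nfkbie*, *Nfkbiz* and *Bcl3*. The list also holds *Tnfaip3*, which encodes the ubiquitin editor A20, and *Tnip1*, whose protein ABIN-1 binds A20. SFs came from the ankle joints of wild-type (WT) mice and of hTNFtg mice, which carry a human TNF transgene and develop arthritis. There were 3 WT libraries, 3 hTNFtg libraries, and 3 libraries of hTNFtg SFs that had received infliximab (Remicade), an antibody against human TNF, at 1 µg/mL for 48 hours. The labels state no treatment for the WT SFs and for the hTNFtg SFs without infliximab, while the study's methods describe vehicle. All cultures had been depleted of CD45+ cells at passage 1, and the mice were 8 weeks old. RNA was read at the 3′ end of transcripts (QuantSeq), so the count of a gene does not scale with its length.

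NF-kB is a dimer of Rel family proteins that is held in the cytoplasm by IkB proteins. Ligand binding to a TNF receptor activates the IkB kinase complex, IkB is degraded, and the dimer moves to the nucleus. Among its target genes are several of its own subunits and inhibitors, which closes a negative feedback loop. In synovial fibroblasts this pathway is known for driving chemokines, cytokines and matrix-degrading enzymes in response to TNF.

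Because these genes are known NF-kB targets, the bases before their start sites are shown for the inhibitor genes whose counts differed most between hTNFtg and WT SFs. The sequences are RefSeq promoters of GRCm38.p6, the patched form of the mm10 build used for the counts, read 5′ to 3′ on the gene's strand. Each covers the 130 bases before the start site, and capitals mark matches to the NF-kB consensus motif of 10 bases on either strand. The stretch of *Nfkbia* is chr12:55492648-55492777 on the minus strand and that of *Nfkbie* is chr17:45555570-45555699 on the plus strand, and both lie upstream of the gene as the deposited tables draw it. The stretch of *Tnfaip3* is chr10:19015411-19015540 on the minus strand, inside the gene interval of the tables but in no exon of GENCODE M21.
Nfkbia: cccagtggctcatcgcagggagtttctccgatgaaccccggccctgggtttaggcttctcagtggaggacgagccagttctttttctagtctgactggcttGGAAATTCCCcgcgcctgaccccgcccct
Nfkbie: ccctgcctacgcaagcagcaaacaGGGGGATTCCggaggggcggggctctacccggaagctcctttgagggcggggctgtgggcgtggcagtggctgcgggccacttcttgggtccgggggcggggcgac
Tnfaip3: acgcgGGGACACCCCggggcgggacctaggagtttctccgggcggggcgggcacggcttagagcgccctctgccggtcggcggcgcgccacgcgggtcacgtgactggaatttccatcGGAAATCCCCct
The match in *Nfkbia* lay 29 to 20 bases before the start, that in *Nfkbie* 106 to 97 bases before it, and *Tnfaip3* held a match at 125 to 116 and another at 12 to 3 bases. RefSeq promoter windows of 300 bases were at hand for 7 of the 10 genes, with more than 1 start site for *Nfkb2* and *Tnfaip3*. Of the 10 windows of these genes, 8 held a match, whereas 8.46% of 32851 windows of that length did. By gene, 6 of the 7 held a match at some start site, a count for which no share over all genes was computed. A pair of *Nfkb2* windows overlaps and shares a match, which is counted in both. The windows without a match were that of *Rela* and the second of *Tnfaip3*. A match is a description of letters and not evidence of binding.

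The libraries differed in depth. One read was worth 0.534 to 1.10 normalized counts in 8 libraries and 6.23 in hTNFtg replicate 1, which held about 613343 reads against 3829156 to 9015557 in the others. The 10 genes together received 515 reads in hTNFtg replicate 1 and between 2325 and 7065 in the other libraries. For *Nfkb1* in hTNFtg replicate 1, 100 normalized counts stood for 16 reads, with an exact Poisson 95% interval from 57.0 to 162 that covers counting error only. All 10 SF markers checked, such as *Pdgfra*, *Pdpn* and *Col1a1*, averaged 10 normalized counts or more in every group, and their summed level was 36285 to 52372 normalized counts. The summed level of 12 macrophage and leukocyte markers was 239, 1045 and 320 for the WT libraries in replicate order, 8468, 3956 and 5870 for hTNFtg, and 4635, 2603 and 5206 for infliximab. None of the 12 was at 0 throughout a group, and *Ptprc*, which encodes CD45, was counted at 0, 3 and 0 (WT), 31, 9 and 12 (hTNFtg) and 28, 8 and 22 (infliximab). These markers therefore moved with the genotype, and their part in each difference from WT given here was not tested. In bulk RNA, more cells of a type and more RNA per cell cannot be told apart. Markers of hepatocytes summed to 41 to 177 in 8 libraries and to 1025 in infliximab replicate 3, while endothelial markers summed to at most 6, with *Tie1* at 0 everywhere.

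Before the comparisons, each gene was set beside its neighbours within 3000 bases, because reads of genes that end close to each other can be counted on both. *Tnip1* (chr11:54910785-54962917, minus strand) and *Gpx3* (chr11:54902453-54910377, plus strand), which encodes a secreted glutathione peroxidase, point toward each other with 407 bases between their ends. In the WT libraries *Tnip1* stood at 1881, 1697 and 1611 normalized counts and *Gpx3* at 1894, 1699 and 1612, in replicate order as in all values below. In hTNFtg SFs the values were 803, 811 and 1016 for *Tnip1* and 766, 806 and 1014 for *Gpx3*. With infliximab they were 941, 811 and 1134 for *Tnip1* and 945, 813 and 1141 for *Gpx3*. Both genes thus carried nearly the same count in each of the 9 libraries, and the largest gap between them was 4.61% of the *Tnip1* value. *Nfkb2* (chr19:46304737-46312090, plus strand) overlaps *Psd* on the opposite strand by 4 bases at its 3′ end, and their counts were equal in 9 of 9 libraries. The counts listed for *Tnip1* and *Nfkb2* can therefore not be told apart from those of *Gpx3* and *Psd*, and they are given below with that limit. No other gene among the 10 had such a neighbour, taking a match as a difference of at most 10% or 3 normalized counts in every library. Of 13600 genes with a mean of at least 10, 991 (7.29%) had one, and for 708 of them it lay on the opposite strand. This search finds only nearly equal counts, and sharing of a part of the reads was not examined. *Bcl3*, for example, overlaps *Gm16174* on the opposite strand by 2073 bases, and *Gm16174* stood at 1 to 24 normalized counts.

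**Figure D1:**
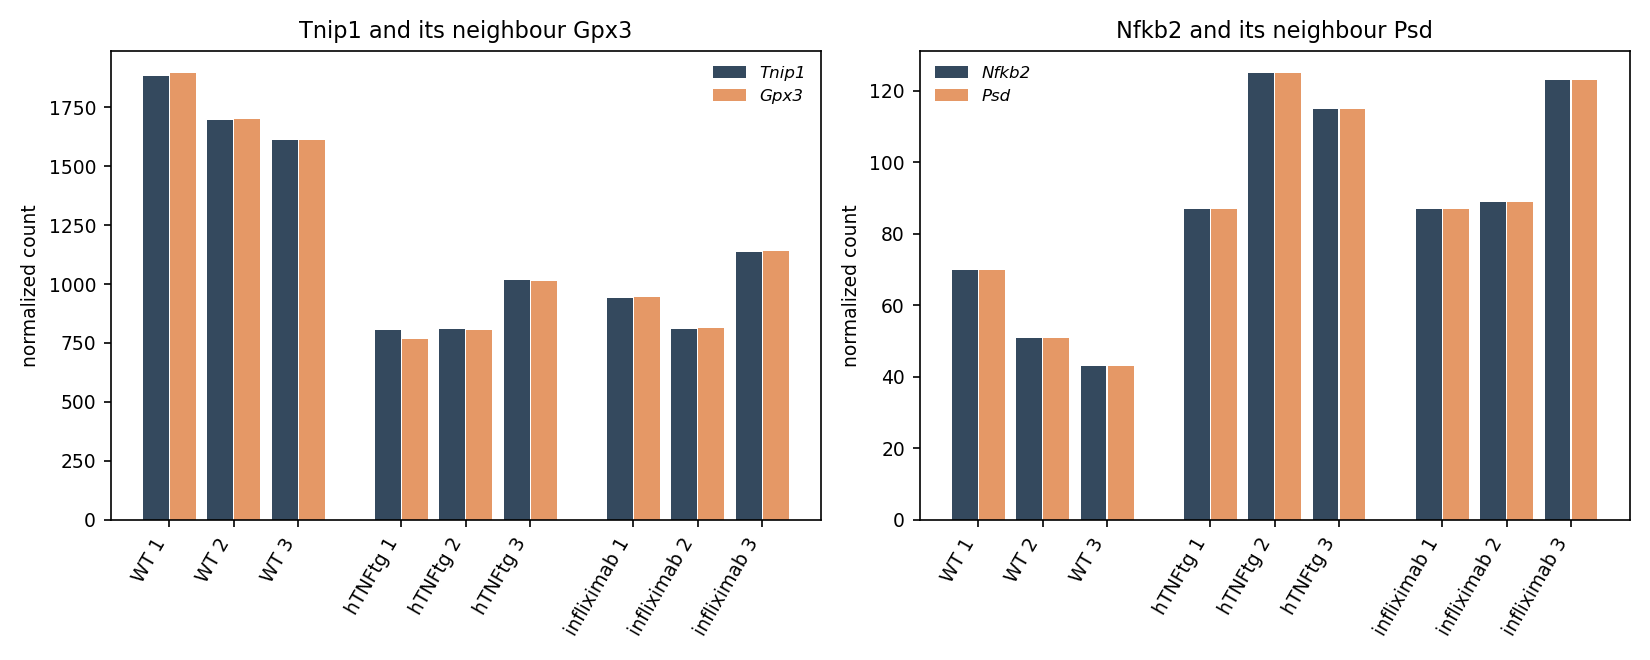
Normalized counts (vertical axis, linear from 0) in each of the 9 libraries for *Tnip1* beside *Gpx3* (left) and *Nfkb2* beside *Psd* (right), 1 bar per gene and library. The paired bars are level in every library, with a largest difference of 37 normalized counts for *Tnip1* and *Gpx3* and of 0 for *Nfkb2* and *Psd*.

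The comparison of hTNFtg with WT SFs asks how the pathway's own genes stand in fibroblasts under chronic TNF. The IkB genes *Nfkbia* and *Nfkbie* rose and passed the adjusted test, and the fibroblasts' most abundant subunit gene, *Rela*, did not pass any. The study's rule asks for an unadjusted P under 0.05 and a change of 1 or more on the log2 scale in either direction. The study applied it to DESeq results, whereas here it is applied to limma's, so the calls are not the study's own. By this rule, 6 of the 10 genes were raised, *Nfkb1*, *Relb*, *Nfkbia*, *Nfkbie*, *Nfkbiz* and *Tnfaip3*, and 0 were lowered, where 3.35% of all 28522 genes tested were raised and 3.04% lowered. After Benjamini-Hochberg adjustment of limma's test, 2 of the 10 were raised, against 0.235% of all genes, and 0 were lowered, against 0.245%. An unadjusted P under 0.05 was reached by 8 of the 10, against 7.72% of all genes. edgeR on approximate reads raised 4 of the 10 after adjustment (*Nfkbia*, *Nfkbie*, *Nfkbiz* and *Tnfaip3*), against 2.06% of all genes, and lowered 0, against 1.17%. Every hTNFtg library lay above every WT library for 7 of the 10 genes, against 5.63% of all genes, and below for 1, *Tnip1*, against 5.8%. The median log2 fold change of the 10 genes was 1.11, and that of all genes tested was -0.003. Without *Nfkb2* and *Tnip1* the median was 1.60 over 8 genes, and the 6 and 2 calls were the same in number.

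*Nfkbia* encodes IkBα, the inhibitor that is degraded and then resynthesized under NF-kB during signaling. It was counted at 302, 267 and 319 in the WT libraries and at 953, 1313 and 1714 in the hTNFtg libraries. The groups lay far apart, and hTNFtg replicate 1 was the lowest of its group. The mean was 296 ± 26.5 in WT and 1327 ± 381 in hTNFtg (SD, n = 3 each), a log2 fold change of 2.12 (standard error 0.31) with a limma adjusted p of 0.0148. *Nfkbie* encodes IkBε, an inhibitor with delayed resynthesis. It stood at 11, 24 and 14 normalized counts in WT and at 75, 113 and 151 in hTNFtg. Again no library overlapped, and the mean went from 16.3 ± 6.81 to 113 ± 38.0 (SD, n = 3 each), a log2 fold change of 2.73 (standard error 0.45, limma adjusted p = 0.0237). The calls of both genes were lost whenever any 1 of the 6 libraries was left out, and their log2 fold changes then stayed between 1.92 and 2.34 for *Nfkbia* and between 2.49 and 3.03 for *Nfkbie*. Both calls were also lost with the replicate block (limma adjusted p = 0.478 for each). hTNFtg replicate 1, the shallowest library, had the lowest *Nfkbia* and *Nfkbie* of its group and the highest *Nfkb1*, *Relb*, *Nfkbiz* and *Tnfaip3*. It also had the highest sum of macrophage markers, in which *Lyz2* stood at 5356, 2284 and 2356 in the hTNFtg libraries. *Cd68*, *Laptm5*, *Cd14*, *Cx3cr1* and *Mrc1* were instead highest in hTNFtg replicate 3, and the other listed markers in replicate 1. The part of these markers was not tested.

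*Nfkbiz* encodes IkBζ, a nuclear IkB that acts as a coactivator for a subset of target genes. It was counted at 39, 19 and 15 in WT and at 162, 100 and 50 in hTNFtg. The groups did not overlap, yet the hTNFtg libraries themselves were widely spread, and the log2 fold change of 2.01 (standard error 0.52) had a limma adjusted p of 0.165. *Bcl3*, which encodes another nuclear IkB that binds p50 and p52 homodimers, was at 111, 100 and 60 in WT and at 131, 106 and 131 in hTNFtg. Its groups overlapped, with a log2 fold change of 0.48 (95% interval -0.26 to 1.22).

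*Tnfaip3* encodes A20, which trims ubiquitin chains from signaling proteins below the TNF receptor. It was close to the detection limit in WT SFs, at 3, 1 and 0 normalized counts, and at 50, 14 and 21 in hTNFtg. The WT libraries together held 4 reads and the hTNFtg libraries 63, and scaled for depth the ratio was 18.0 with an exact 95% interval from 6.68 to 68.0 that covers counting error only. The fitted log2 fold change of 3.68 (limma adjusted p = 0.124) depends on the pseudocount of 1 and was 2.27 with a pseudocount of 5. The highest hTNFtg value, 50, stood for 8 reads. *Tnip1*, whose protein binds A20, was lower by 0.99 on the log2 scale with a standard error of 0.30 in hTNFtg SFs (log2 fold change -0.99, limma adjusted p = 0.277), and *Gpx3*, which carries nearly the same count, had a log2 fold change of -1.02 (limma adjusted p = 0.262).

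**Figure D2:**
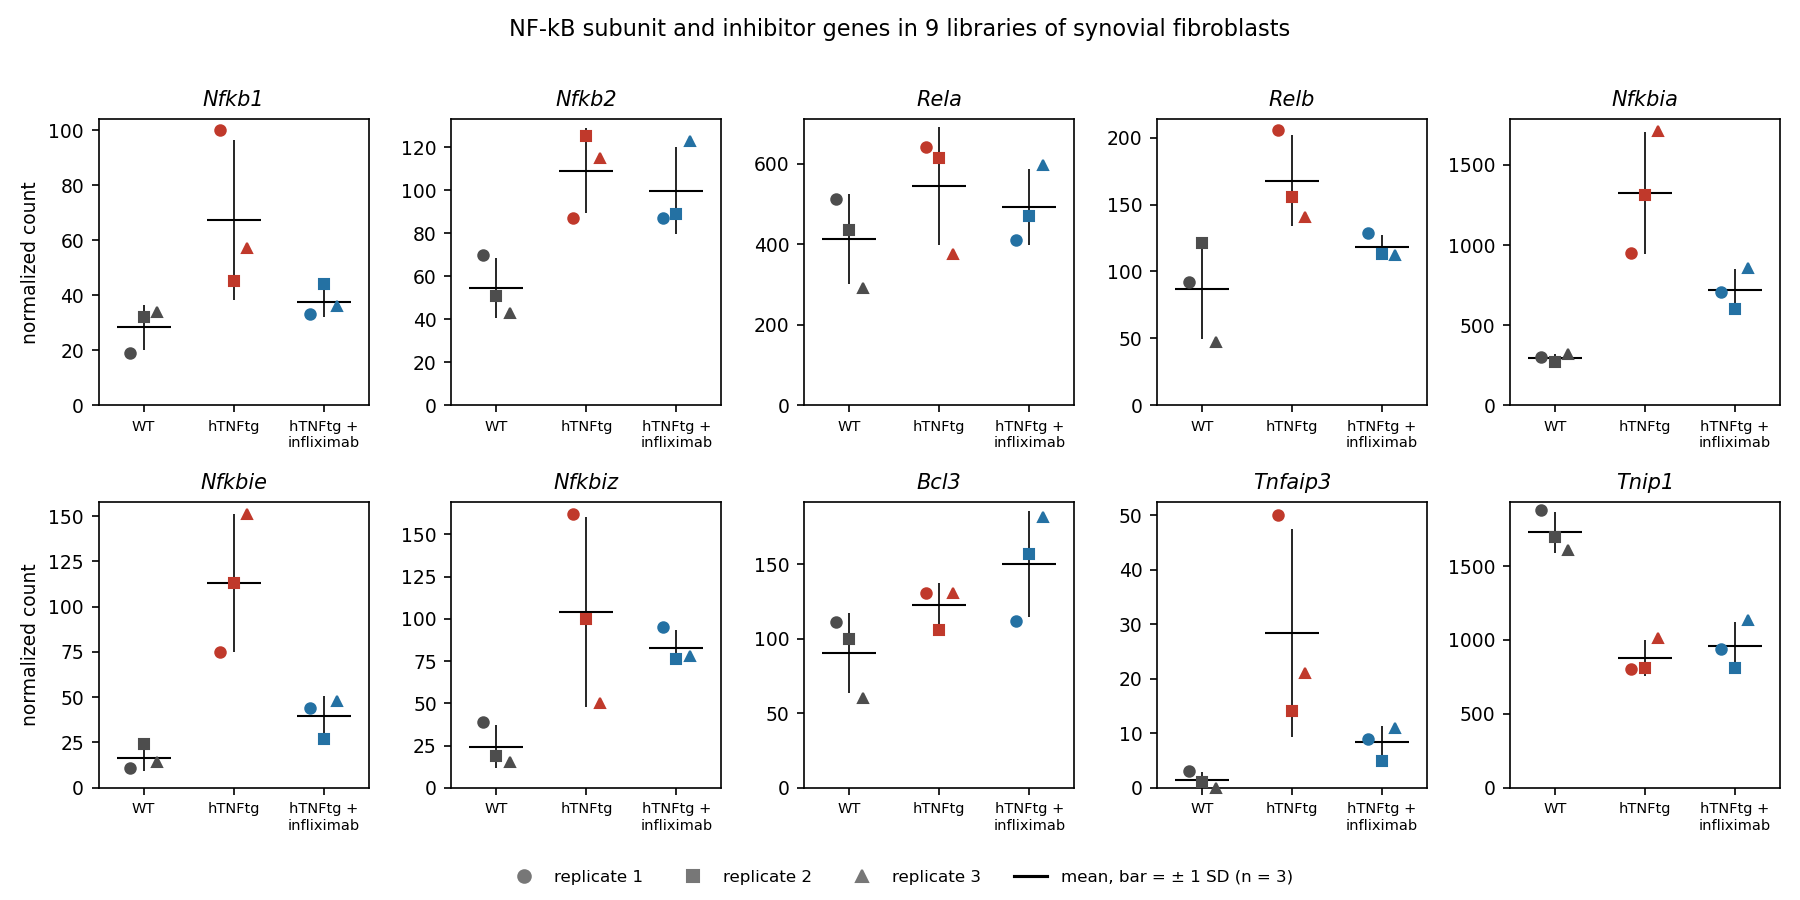
Normalized counts (vertical axis, linear from 0, one scale per panel) of the 10 genes in WT, hTNFtg and infliximab-treated hTNFtg SFs, with 1 point per library, its shape giving the replicate number, the group mean as a horizontal line and 1 SD as a vertical line. *Nfkbia* and *Nfkbie* show 3 separate levels, with infliximab between WT and hTNFtg, while *Rela* overlaps between all 3 groups.

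Among the subunits, *Rela* encodes p65, the main transactivating subunit. It was counted at 511, 434 and 291 in WT and at 642, 615 and 376 in hTNFtg. The groups overlapped, and the log2 fold change was 0.40 with a 95% interval from -0.33 to 1.13. *Nfkb1* encodes p105, the precursor of p50, and stood at 19, 32 and 34 in WT and at 100, 45 and 57 in hTNFtg. Its groups did not overlap, but the highest value came from the shallow library, and without hTNFtg replicate 1 the log2 fold change went from 1.18 to 0.86 and no longer met the study's rule, nor did it without WT replicate 1 (0.93), with array quality weights (0.74) or with the replicate block (1.18, unadjusted P = 0.0696). *Relb* encodes the partner of p52 in the noncanonical pathway. Its counts were 92, 121 and 47 in WT and 206, 156 and 141 in hTNFtg, a log2 fold change of 1.03 (standard error 0.38, limma adjusted p = 0.464). The rule was not met without WT replicate 3 (0.64) or hTNFtg replicate 1 (0.87), nor with a pseudocount of 5 (0.99), array quality weights (0.82) or edgeR (0.88). The count listed for *Nfkb2*, the gene of p100 and p52, was 70, 51 and 43 in WT and 87, 125 and 115 in hTNFtg. These groups did not overlap, and the log2 fold change of 1.00 (0.995 before rounding, standard error 0.35, limma adjusted p = 0.393) was just short of the rule. The rule was met with a pseudocount of 0.5 (1.002), quantile normalization (1.006) and array quality weights (1.19), and also without WT replicate 1 (1.185) or hTNFtg replicate 1 (1.148).

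The composition within a library does not depend on how libraries were scaled. *Rela* made up 69.4% ± 2.90 of the summed counts of the 5 Rel family genes in WT SFs, 60.2% ± 5.34 in hTNFtg and 65.0% ± 3.15 with infliximab (SD, n = 3 each). In every hTNFtg library (61.7%, 64.7% and 54.3%) this share was below the lowest WT library (67.4%), while infliximab replicate 3 reached 68.2%. *Relb* held 14.3% ± 4.04, 18.9% ± 2.13 and 16.0% ± 3.36 of the counts in the same order, and *Nfkb1* 5.21% ± 2.63, 7.53% ± 2.51 and 5.06% ± 0.98. *Rel*, the fifth family gene, which encodes c-Rel and is best known from lymphocytes, gave 11, 6 and 13 normalized counts (WT), 6, 9 and 3 (hTNFtg) and 3, 8 and 7 (infliximab). It was thus at most 3.04% of the family in any library. The ratio of *Nfkbia* to *Rela* was 0.591, 0.615 and 1.10 in the WT libraries and 1.48, 2.13 and 4.56 in the hTNFtg libraries. With infliximab it was 1.73, 1.28 and 1.44. Both hTNFtg groups lay above WT in all their libraries, and the spread of the ratio was widest in hTNFtg. The share of *Nfkb2*, 9.31% ± 1.20, 12.7% ± 4.15 and 13.2% ± 0.88, carries the limit of a count that equals that of *Psd*, as do the other shares through the sum.

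**Figure D3:**
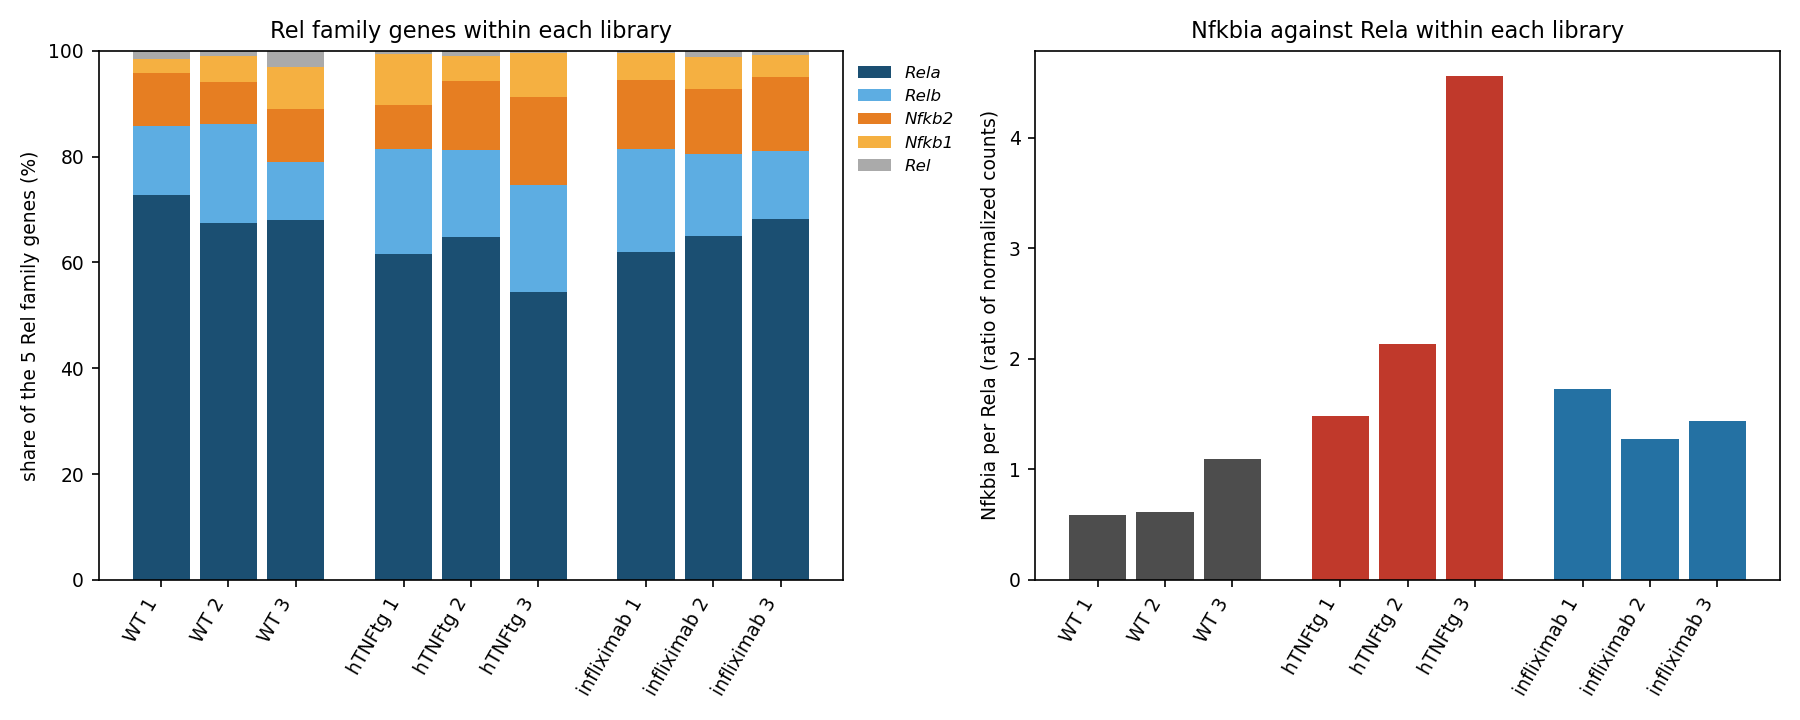
Left, share of each Rel family gene in the summed normalized counts of the 5 genes (%) for each library, as stacked bars. Right, ratio of the normalized counts of *Nfkbia* and *Rela* in each library, as bars from 0, which runs from 0.591 to 1.10 in WT and from 1.48 to 4.56 in hTNFtg SFs.

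The comparison of infliximab-treated with untreated hTNFtg SFs asks which of these differences recede when TNF is neutralized. It shares its untreated libraries with the comparison before, so a gene high in them by chance would tend to be lower here. The size of this effect was not tested. The IkB gene *Nfkbie* was lower in every treated library, and so were *Nfkbia*, *Tnfaip3*, *Nfkb1* and *Relb*, but none passed limma's adjusted test without sample weights. By the study's rule 0 of the 10 genes were raised and 2, *Nfkbie* and *Tnfaip3*, were lowered, where 1.49% of all 28540 genes tested were raised and 0.936% lowered. With limma, 0 of the 10 had an adjusted p under 0.05, as had 0 of all genes (0.0%), and 3 of the 10 had an unadjusted P under 0.05, against 3.59% of all genes. edgeR on approximate reads called 1 of the 10, *Nfkbie* (adjusted p = 0.0288), which limma with array quality weights also called (adjusted p = 0.0203), and edgeR called 0.343% of all genes lowered and 0.235% raised. Every treated library lay below every untreated one for 5 of the 10 genes, against 3.44% of all genes, and above for 0, against 3.99%. The summed macrophage and leukocyte markers were 4635, 2603 and 5206 in the treated and 8468, 3956 and 5870 in the untreated libraries, which overlapped, and their part in these differences was not tested. The median log2 fold change was -0.33 over the 10 genes and -0.62 over the 8 without *Nfkb2* and *Tnip1*, and that of all genes was 0 at the precision given.

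*Nfkbie* stood at 44, 27 and 48 normalized counts with infliximab, against 75, 113 and 151 without it. The groups did not overlap, but the lowest untreated value, 75 in hTNFtg replicate 1, stood for 12 reads with an exact Poisson 95% interval from 38.6 to 131 that includes the highest treated value. The log2 fold change was -1.47 (standard error 0.39, unadjusted P = 0.00218, limma adjusted p = 0.803). It met the study's rule whichever library was left out, with values from -1.74 to -1.22. *Nfkbia* was at 708, 600 and 859 with infliximab, below the untreated 953, 1313 and 1714. Its log2 fold change was -0.85 (standard error 0.32, unadjusted P = 0.0195, limma adjusted p = 0.803), and it met the study's rule only without hTNFtg replicate 1 (-1.07). *Tnfaip3* was at 9, 5 and 11 with infliximab, each below the untreated 50, 14 and 21, with a log2 fold change of -1.52 (standard error 0.69, unadjusted P = 0.0473). That call was lost without any one of hTNFtg replicates 1 and 3 and infliximab replicates 1, 2 and 3, and without hTNFtg replicate 1 the value was -1.02. It was also lost with a pseudocount of 5 (-1.20, unadjusted P = 0.0594), quantile normalization (-1.55, unadjusted P = 0.0514), array quality weights (-0.98) and all 9 libraries in one fit (-1.52, unadjusted P = 0.0751).

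The remaining genes met no threshold. *Relb* was at 129, 113 and 112 with infliximab, below each untreated library, with a log2 fold change of -0.49 (95% interval -1.12 to 0.14). *Nfkb1*, at 33, 44 and 36, had a log2 fold change of -0.75 (95% interval -1.63 to 0.13). With 1 library left out, the value for *Nfkb1* ran from -0.995 to -0.43, the latter without hTNFtg replicate 1, and with array quality weights it was -0.33. *Nfkbiz* stood at 95, 76 and 78, inside the untreated range, and its log2 fold change of -0.17 (95% interval -1.05 to 0.70) changed sign without hTNFtg replicate 1. *Bcl3* was at 112, 157 and 182, with a log2 fold change of 0.27 (95% interval -0.39 to 0.93). *Rela* was at 410, 470 and 597, with a log2 fold change of -0.12 (95% interval -0.78 to 0.54) that turned to slightly above 0 in 2 of the fits without 1 library. The listed *Nfkb2* count was 87, 89 and 123, with a log2 fold change of -0.13, and that of *Tnip1* had one of 0.13.

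**Figure D4:**
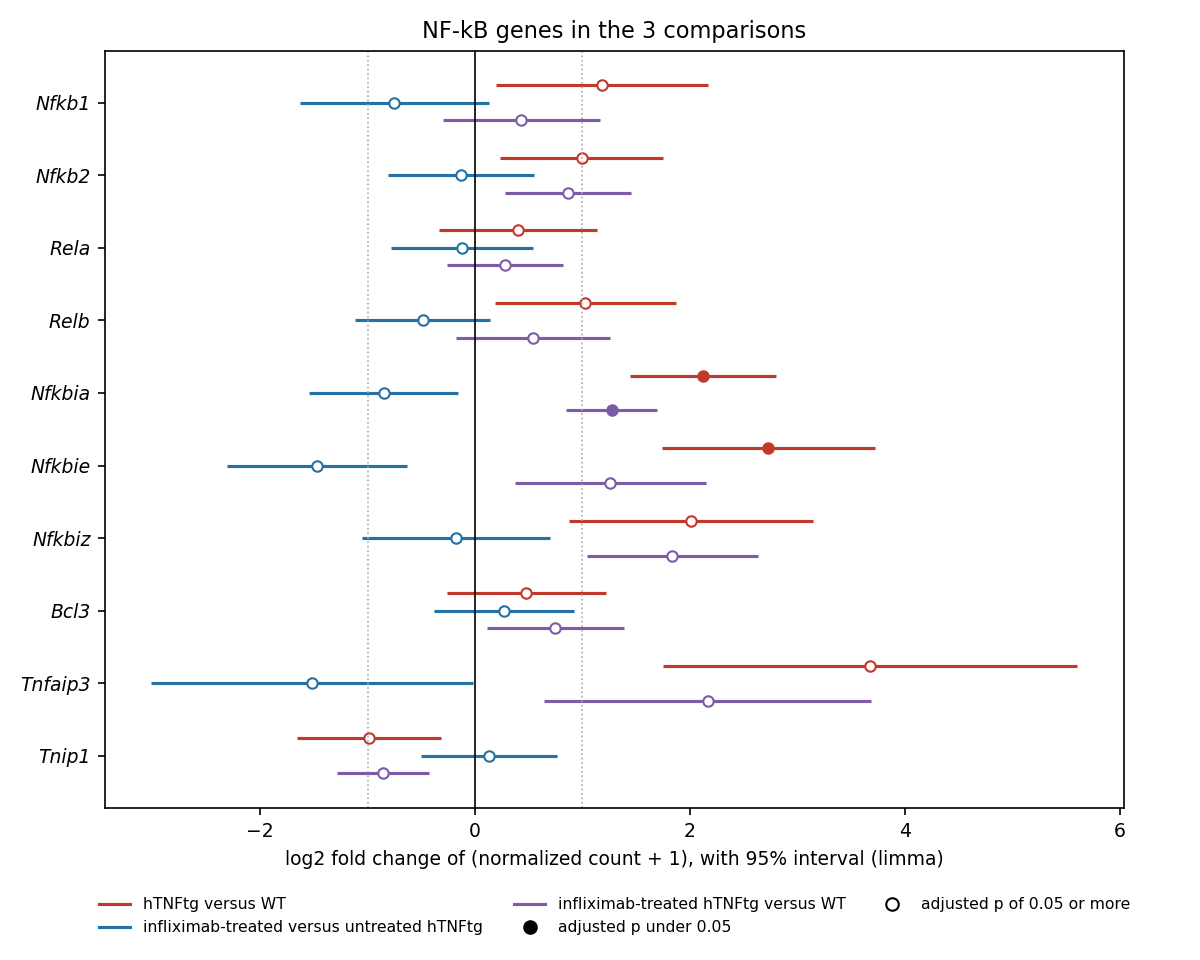
log2 fold changes of the normalized count plus 1 (horizontal axis) of the 10 genes in the 3 comparisons, as points with 95% intervals from limma. Filled points have an adjusted p under 0.05, dotted lines mark a log2 fold change of 1 in either direction, and the filled points are *Nfkbia* and *Nfkbie* in hTNFtg versus WT and *Nfkbia* in infliximab-treated hTNFtg versus WT.

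The comparison of infliximab-treated hTNFtg SFs with WT shows what remained above WT after 48 hours, and it shares its treated libraries with the comparison before and its WT libraries with the first. *Nfkbia* remained raised, with means of 722 ± 130 against 296 ± 26.5 (SD, n = 3 each) and a log2 fold change of 1.27 (standard error 0.19, limma adjusted p = 0.0249). The study's rule was met by 4 of the 10 genes, *Nfkbia*, *Nfkbie*, *Nfkbiz* and *Tnfaip3*, all raised, where 3.86% of all 28243 genes tested were raised and 2.95% lowered. An adjusted p under 0.05 was reached by 1 of the 10, raised, against 0.365% of all genes raised and 0.375% lowered, and an unadjusted P under 0.05 by 7 of the 10, against 11.9%. edgeR on approximate reads raised 2 of the 10 after adjustment (*Nfkbia* and *Nfkbiz*), against 2.72% of all genes, and lowered 1 (*Tnip1*), against 1.96%. The adjusted call of *Nfkbia* was lost without any 1 of the 6 libraries, its log2 fold change then being 1.14 to 1.40. That call was also lost with the replicate block and with all 9 libraries in one fit. Every treated library lay above every WT library for 6 of the 10 genes, against 7.14% of all genes, and below for *Tnip1* only, against 7.07%.

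*Nfkbiz* had a log2 fold change of 1.84 (standard error 0.36, limma adjusted p = 0.0587) against WT, close to its 2.01 in untreated hTNFtg SFs. *Nfkbie* had one of 1.26 (standard error 0.40, limma adjusted p = 0.22), against 2.73 in untreated hTNFtg SFs, and without infliximab replicate 3 it was 1.10 with P just above the rule's limit, and with array quality weights it was 0.97. For *Tnfaip3*, 29 reads with infliximab against 4 in WT gave a depth-scaled ratio of 7.86 with an exact 95% interval from 2.76 to 30.8, counting error only. The log2 fold changes of *Bcl3* (0.75), *Relb* (0.54), *Nfkb1* (0.43) and *Rela* (0.28) had limma adjusted p-values between 0.322 and 0.646. With 1 library left out they ran from 0.48 to 0.94, 0.16 to 0.83, 0.18 to 0.58 and 0.046 to 0.45, in that order. The listed *Tnip1* count was below WT, with a log2 fold change of -0.86 (limma adjusted p = 0.0877), and *Gpx3* had one of -0.85. The listed *Nfkb2* count was higher than WT in every treated library, with a log2 fold change of 0.87 (standard error 0.26, unadjusted P = 0.00837, limma adjusted p = 0.201) that was short of the rule.

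By mean level, *Rela* (412) and *Nfkbia* (296) led the 8 genes other than *Nfkb2* and *Tnip1* in WT SFs, and their libraries overlapped. *Bcl3* (90.3) and *Relb* (86.7) followed and overlapped, then *Nfkb1* (28.3), *Nfkbiz* (24.3) and *Nfkbie* (16.3), of which each overlapped the next, and *Tnfaip3* (1.33) came last. In hTNFtg SFs *Nfkbia* (1327) stood above *Rela* (544) in every library, *Relb* (168) came next without overlap, and *Bcl3* (123), *Nfkbie* (113), *Nfkbiz* (104) and *Nfkb1* (67.3) overlapped in turn. With infliximab the order began with *Nfkbia* (722) and *Rela* (492), and ended with *Nfkbie* (39.7), *Nfkb1* (37.7) and *Tnfaip3* (8.33). The libraries of *Nfkbia* and *Rela* were only narrowly apart, the lowest *Nfkbia* being 600 and the highest *Rela* 597.

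A list of 41 other genes of the pathway was taken through the same fits. In hTNFtg versus WT SFs 8 of the 41 were raised by the study's rule and 0 lowered, against 3.35% and 3.04% of all genes. With limma 0 of the 41 had an adjusted p under 0.05 and 9 an unadjusted P under 0.05, against 7.72% of all genes. edgeR on approximate reads raised 4 of the 41 after adjustment (*Traf1*, *Traf3*, *Nfkbib* and *Tnip3*), against 2.06% of all genes, and lowered 0. Their median log2 fold changes by group were 0.44 for 9 receptors and adaptors (3 raised), -0.13 for 5 ubiquitin ligases (1 raised), 0.13 for 11 kinases (0 raised), 1.97 for 3 further IkB genes (2 raised, the median being the value of *Nfkbib*, whose count cannot be told apart from that of *Ccer2*) and 0.25 for 12 other inhibitors (2 raised). Among the receptors, *Tnfrsf1a* was within 3 normalized counts of its neighbour *Plekhg6* in each library and cannot be told apart from it. *Traf3*, an adaptor that restrains the noncanonical pathway, stood at 104, 111 and 100 (WT), 293, 251 and 285 (hTNFtg) and 161, 132 and 140 (infliximab). Its 3 groups did not overlap, and its log2 fold change in hTNFtg versus WT was 1.39 (standard error 0.28, limma adjusted p = 0.0605). *Tnfrsf1b*, which encodes TNF receptor 2, was at 46, 49 and 58 (WT), 137, 99 and 112 (hTNFtg) and 123, 71 and 146 (infliximab). It met the study's rule against WT in both, with log2 fold changes of 1.16 and 1.08. The call with infliximab was lost without infliximab replicate 1 (0.99) or 3 (0.87) and with array quality weights (0.997).

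*Traf1*, an adaptor and known NF-kB target, was at 1, 2 and 3 (WT), 31, 17 and 9 (hTNFtg) and 10, 13 and 9 (infliximab), with a log2 fold change of 2.64 in hTNFtg versus WT (limma adjusted p = 0.285) and no overlap of either group with WT. *Birc3*, the gene of the ubiquitin ligase cIAP2, was at 28, 32 and 15 in WT and at 125, 61 and 51 in hTNFtg, a log2 fold change of 1.58 (limma adjusted p = 0.27). *Zc3h12a*, which encodes the RNase Regnase-1, had one of 1.14, which no longer met the rule without WT replicate 2 (0.99), WT replicate 3 (0.99) or hTNFtg replicate 2 (0.89), nor with the replicate block (unadjusted P = 0.0598). *Nfkbib*, the gene of IkBβ, had one of 1.97, but its counts matched those of the overlapping *Ccer2* to within 3 normalized counts in each library and cannot be told apart from them. Its call was lost without WT replicate 1 (1.37), hTNFtg replicate 1 (1.64) or hTNFtg replicate 2 (1.75) and with the replicate block (unadjusted P = 0.0691). The other two raised genes, named after their values were seen, were *Nfkbid* (1, 1 and 3 in WT, 19, 9 and 5 in hTNFtg) and *Tnip3*, an A20-binding gene at 0 in every WT library and at 19, 14 and 2 in hTNFtg, at least 8.75-fold higher against a floor of 3 reads over the WT group. The log2 fold change of *Nfkbid* was 2.08, and its call was lost without WT replicate 1 (1.91), WT replicate 2 (1.91) or hTNFtg replicate 2 (2.12) and with the replicate block (unadjusted P = 0.0549). The third of the further IkB genes, *Nfkbil1*, had a log2 fold change of -0.87 (95% interval -2.48 to 0.73). Its sign was not stable, with values from -1.575 to 0.203 when 1 library was left out and -0.22 with edgeR. In hTNFtg replicate 1 it stood at 12 normalized counts. In infliximab-treated versus untreated hTNFtg SFs 0 of the 41 were raised by the rule and 1, *Nfkbib*, was lowered (log2 fold change -1.17), against 1.49% and 0.936% of all genes. That call was lost under 9 of 16 alternatives, among them those without hTNFtg replicate 1 (-0.83) or 2 (-0.94) and without any 1 of the infliximab libraries. Adjusted calls among the 41 were 0 with limma, against 0.0% of all genes, and 0 with edgeR, against 0.235% raised and 0.343% lowered. By limma 2 of the 41 had an unadjusted P under 0.05, a share near the 3.59% of all genes. Against WT, infliximab-treated SFs had 3 raised (*Traf1*, *Tnfrsf1b* and *Tnip3*) and 0 lowered by the rule, against 3.86% and 2.95% of all genes. edgeR raised 2 of the 41 after adjustment (*Tnfrsf1b* and *Tnip3*), against 2.72% of all genes, and limma made 1 adjusted call, *Tnip3* (15, 4 and 13 normalized counts, at least 13.0-fold higher, limma adjusted p = 0.0486), against 0.365% of all genes raised. The limma call for *Tnip3* was lost when any 1 of the 6 libraries was left out (limma adjusted p = 0.121 to 0.343).

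**Figure D5:**
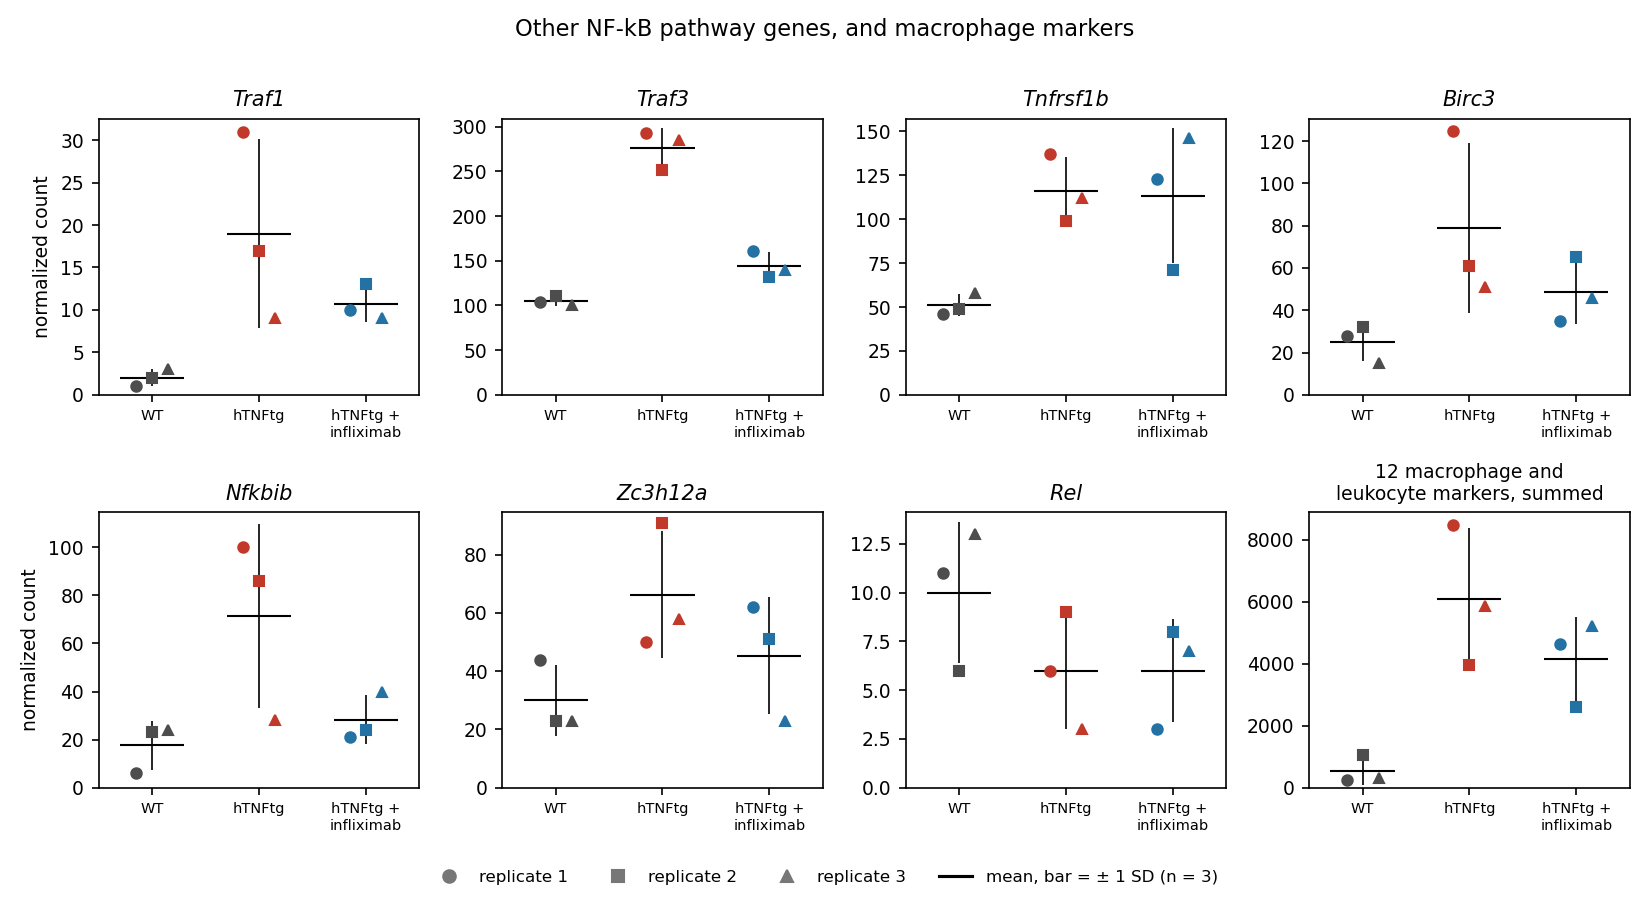
Normalized counts (vertical axis, linear from 0, one scale per panel) of 7 other pathway genes and, in the last panel, the sum of 12 macrophage and leukocyte markers, drawn as 1 point per library with group mean and 1 SD. *Traf3* and *Traf1* lie lowest in all WT libraries, as does the marker sum, which is 239 to 1045 in WT and 2603 to 8468 in the other 6 libraries.

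Across the 9 libraries, the genes outside the list whose profile lay nearest to the mean profile of the 10 genes were *Stab1*, *Igf1r*, *Gm5559*, *Ext1* and *Egln1*, out of 8623 genes with a mean of at least 50. The measure was the root mean square distance of log2 values taken relative to the WT mean, which was 0.12 for *Stab1* and 0.18 to 0.23 for the others. *Stab1*, a scavenger receptor gene, had means of 100 in WT, 240 in hTNFtg and 180 with infliximab, and the mean profile includes *Nfkb2* and *Tnip1*.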

How the data were processed

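RNA of 9 SF libraries was sequenced at the 3′ end. The authors mapped reads to mm10 with TopHat2 and Bowtie2, counted them per gene with GenomicRanges and normalized them through metaseqR, with versions and strand handling not given in the sources used here. The values used are a score deposited by the authors, namely normalized counts rounded to whole numbers. For hTNFtg replicate 1, whole reads times a constant make up the deposited signal. DESeq fold changes and p-values of the authors' comparisons, and 24 other per-sample columns, were not used. Reads were approximated from the steps between low values, and the approximation gave back 99.996% and 100% of values in infliximab replicate 1 and hTNFtg replicate 1, the libraries where it could be checked.

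Groups were compared with limma 3.58.1 (lmFit, eBayes with trend) in R 4.3.3 on log2 of the value plus 1, two-sided, in the 6 libraries of each comparison and over genes above 0 in at least 1. The fit was tested on simulated data. A count test would have needed raw counts, so edgeR 4.0.16 on approximate reads served as an alternative. All 10 genes are named, and other pathway genes where they passed the study's rule or an adjusted p under 0.05 with a mean of at least 10, up to 6 per comparison, plus *Rel* and the 5 nearest profiles. The genes and lists were chosen with earlier results of these data known. Other alternatives were a pseudocount of 0.5 or 5, a filter at a mean of 10, quantile or median-ratio scaling, array weights, robust eBayes, a replicate block, all 9 libraries in 1 fit, and leaving out each library. Counting the 8 genes without *Nfkb2* and *Tnip1* was added after seeing the data. Replicates are biological per the methods, without stated animals or litters.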

Additional observations from a re-analysis of the deposited data

How the results depend on the processing

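In hTNFtg versus WT SFs the number of the 10 genes raised by the study's rule stayed within 1.5 times of 6 under every alternative. The number lowered was 1 instead of 0 with array quality weights and with edgeR on approximate reads, the gene being *Tnip1*, and 0 to 1 with a library left out. The number with an adjusted p under 0.05 was 2, against 6 with array quality weights, 4 with robust eBayes, 4 with all 9 libraries in one fit, 4 with edgeR, 0 with the replicate block, and 0 with any library left out. In infliximab-treated versus untreated hTNFtg SFs the number lowered by the rule was 1 instead of 2 with a pseudocount of 5, quantile normalization, array quality weights or all 9 libraries in one fit, and 1 to 2 with a library left out. The adjusted calls were 1 instead of 0 with array quality weights and with edgeR. In infliximab-treated hTNFtg versus WT SFs the adjusted calls were 1, against 3 with the filter at a mean of 10, array quality weights, robust eBayes or edgeR, 2 with median-ratio rescaling, 0 with the replicate block or all 9 libraries, and 0 with any library left out. The cause of these shifts was not tested. Counting without *Nfkb2* and *Tnip1* left the numbers from limma as described in the methods at 6, 0 and 2, at 0, 2 and 0, and at 4, 0 and 1 for raised, lowered and adjusted calls in the 3 comparisons. It was not run under the other alternatives, whose calls include *Tnip1* and *Nfkb2* in places.

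The direction reversed in infliximab-treated versus untreated hTNFtg SFs for *Rela*, at 0.016 without hTNFtg replicate 1 and 0.000498 without infliximab replicate 1, within a range of -0.37 to 0.016 over the left-out libraries, and for *Nfkbiz*, at 0.22 without hTNFtg replicate 1, within -0.62 to 0.22. Over all genes, calls by the rule were 1823, 693 and 1923 in the 3 comparisons, and 1183, 314 and 1056 with the filter. With array quality weights the rule called 3540 in hTNFtg versus WT and 2144 in infliximab-treated versus untreated SFs, where edgeR called 1228, all 9 libraries 1050, a pseudocount of 5 called 351, and fits without 1 library 418 to 1411. Against WT, a pseudocount of 5 called 1058 in infliximab-treated SFs. Adjusted calls over all genes were 137, 0 and 209, against 1004, 65 and 378 with array quality weights, 461, 3 and 1182 with robust eBayes, 381, 3 and 69 with all 9 libraries, 922, 165 and 1321 with edgeR, and 1 to 44, 0, and 0 to 1 with a library left out. With the filter at a mean of 10 they were 141, 0 and 488. Same-numbered libraries of different groups correlated at -0.15 to 0.35 across 13600 genes after removal of group means. The values below 0 were those of replicate 2 in WT against either hTNFtg group (-0.14 and -0.15). Between untreated and infliximab-treated hTNFtg libraries they were 0.070, 0.197 and 0.265 in replicate order. The sources state no pairs, so the main fits did not pair the samples, and whether these libraries are paired is not known. In 11 of 18 cases a library correlated best with its own number, a hint from the data and not from the design. With the replicate block 0 genes had an adjusted p under 0.05 in any comparison. The filter at a mean of 10 gave no value for *Tnfaip3* in infliximab-treated hTNFtg versus WT SFs.

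Depth limits hTNFtg replicate 1 most, where 3 reads amount to 18.7 normalized counts and *Tnfaip3* rests on 8 reads. The counts of *Nfkb2* and *Tnip1* cannot be told apart from those of their neighbours, and no reads were examined. With 3 libraries per group, adjusted calls of single genes depended on each library.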
